A study of Mus musculus with 10 samples.

Results

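Common lymphoid progenitors (CLPs) that carried the surface protein Ly6D were compared with CLPs that lacked it, using 2 arrays of each, which are 4 of the 10 arrays of the study. The arrays were chosen by their titles. All came from bone marrow of adult C57BL/6 mice, for which the labels name neither a mutation nor a treatment. Both CLP groups were sorted as lineage-negative cells with low cKit, low Sca-1, high Flt3 and CD127 on the surface, so the sort separated them by Ly6D alone. The other 6 arrays held lymphoid-primed multipotent progenitors (LMPPs), sorted for high cKit, Sca-1 and Flt3 and split into CD127− and CD127+ cells with 3 arrays each. These arrays served as reference levels and entered the shared estimate of spread. Processing of the CLP and LMPP arrays may have differed, and such a difference cannot be told apart from cell type. Whether the 2 arrays of a CLP group came from separate mice or sorts is not in the labels, so the p-values measure the spread between these arrays, which may be technical.

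CLPs are marrow progenitors that can form B, T, natural killer and dendritic cells, and they depend on interleukin 7, which they sense through CD127. Ly6D is a small protein held to the membrane by a lipid anchor. Among CLPs it marks cells that lean to the B lineage, while Ly6D− CLPs keep a broader lymphoid potential. On the way to a B cell, the transcription factors E2A and EBF1 switch on B lineage genes. The recombinases RAG1 and RAG2 cut the immunoglobulin genes for rejoining, and a surrogate light chain made from VpreB and λ5 pairs with the new heavy chain.

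A gene value is the mean of its probe sets on a scale read as log2, so a difference of 1 is a 2-fold difference. The low-signal limit, 4.45, is the 95th percentile of 1426 odorant, vomeronasal and taste receptor genes. Where the dimmer group had a mean under that limit, the fold was taken against 4.45 and is given as "at least", and the log2 difference printed beside it is that of the measured values, which include signal not above background. A gene was called when its limma p-value, adjusted over all 23152 genes, was under 0.05. The 2 Ly6D− arrays lay further from each other than the 2 Ly6D+ arrays did: 3.18% of all genes differed by 1 log2 or more within the Ly6D− group, against 1.46% within the Ly6D+ group, and the median gaps were 0.249 and 0.196 log2. Over all genes, Ly6D− array 1 correlated at 0.9792 and 0.9772 with the 2 Ly6D+ arrays and at 0.9725 with Ly6D− array 2. Ly6D− array 2 correlated at 0.9703 and 0.9696 with the Ly6D+ arrays, and the 2 Ly6D+ arrays at 0.9813 with each other. So Ly6D− array 1 lay nearer to the Ly6D+ arrays than to its own replicate. In these bulk samples, fewer cells expressing a gene and less RNA per cell cannot be told apart.

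Ly6D+ and Ly6D− CLPs differed in few genes by this test, and Ly6d, the gene of the sorted protein, had the largest increase. Limma called 23 genes, 0.0993% of those tested, with 9 higher (0.0389%) and 14 lower (0.0605%) in Ly6D+ CLPs. Before adjustment, 2107 genes had a p under 0.05. The recombinase gene Rag1, the transcription factor gene Ebf1 and the surrogate light chain gene Vpreb2 followed it, and the mast cell protease gene Cpa3 had the largest decrease of the values averaged over probe sets. In all 23 genes the 2 Ly6D+ values lay on one side of the 2 Ly6D− values. With 2 arrays a side such separation is common: it held for 37.6% of all genes.

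**Figure D1:**
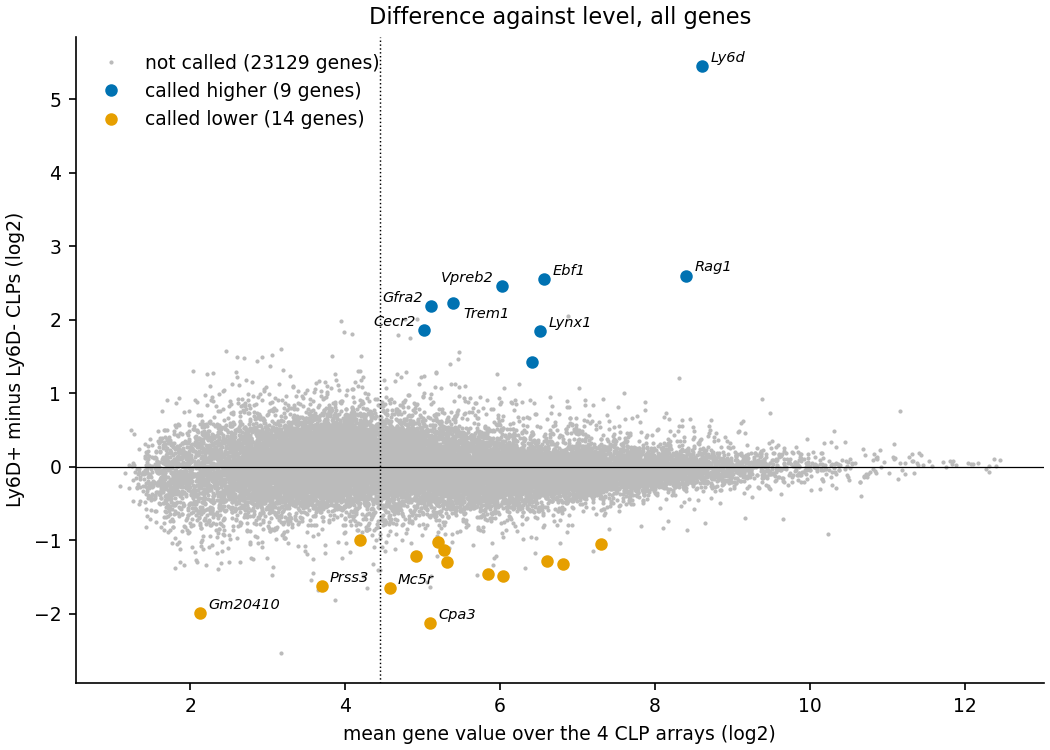
Difference between Ly6D+ and Ly6D− CLPs in log2 (vertical axis) against the mean gene value over the 4 CLP arrays in log2 (horizontal axis) for all 23152 genes. Blue points are the 9 genes called higher, orange points the 14 called lower, grey points all others, and the dotted line is the low-signal limit of 4.45. Ly6d stands at 5.45, the next called gene, Rag1, at 2.60, and Gm20410 is the called gene that lies under the limit in both groups.

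The transcript of the sorted protein followed the sort. Ly6d read 11.31 and 11.35 in the 2 Ly6D+ arrays and 5.59 and 6.17 in the 2 Ly6D− arrays, a difference of 5.45 log2 (SE 0.21, 43.6-fold, adjusted p = 6.43e-07). All 4 of its probe sets were higher in both Ly6D+ arrays. Over all 233753 probe sets with 1 gene symbol, 16.5% were higher in both Ly6D+ arrays and 18.2% were lower in both, the background for each such count. CD127+ LMPPs, which were not sorted on Ly6D, had a mean of 8.67, between Ly6D− CLPs at 5.88 and Ly6D+ CLPs at 11.33.

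None of the 4 sort markers that both CLP groups share was called. Il7r, which encodes CD127, read 9.34 and 9.28 in Ly6D− and 9.66 and 9.62 in Ly6D+ CLPs, and its difference of 0.33 log2 did not pass (95% interval −0.19 to 0.85, adjusted p = 0.723). Flt3, the receptor of Flt3 ligand, differed by −0.17 log2 (95% interval −0.50 to 0.16, adjusted p = 0.789). Kit, the stem cell factor receptor, read 7.50 and 7.73 in Ly6D− and 7.10 and 6.99 in Ly6D+ CLPs, a difference of −0.57 log2 (95% interval −0.91 to −0.24) that missed the threshold after adjustment (adjusted p = 0.268). Ly6a, which encodes Sca-1, rests on 2 probe sets and was uneven within both groups, at 5.98 and 5.04 in Ly6D− and 5.83 and 6.77 in Ly6D+ CLPs (log2 difference 0.79, adjusted p = 0.61). All 4 genes were above the low-signal limit in every CLP array.

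Rag1, which encodes the DNA-cutting subunit of the V(D)J recombinase, rose 6.06-fold. Its values were 9.90 and 9.51 in Ly6D+ and 7.13 and 7.09 in Ly6D− CLPs (log2 difference 2.60, SE 0.17, adjusted p = 0.00013). Rag2, the partner gene that lies beside Rag1 and whose product is needed for cutting, did not move with it. The Rag2 values were 6.73 and 7.12 in Ly6D+ and 6.98 and 7.01 in Ly6D− CLPs (log2 difference −0.07, 95% interval −0.66 to 0.52, adjusted p = 0.959). Dntt, the polymerase that adds untemplated bases at the joins, was high in every CLP array, from 11.46 to 11.60, and differed by 0.07 log2 (adjusted p = 0.943). In the 6 LMPP arrays, which share none of these samples, Rag1 was higher by 3.22 log2 (adjusted p = 1.03e-06), Rag2 by 1.96 (adjusted p = 0.00116) and Dntt by 1.34 (adjusted p = 0.00116) in CD127+ cells. So all 3 genes rose between the LMPP groups, while of them Rag1 alone passed between the CLP groups. Whether the 2 comparisons differ was not tested, and they share the estimate of spread. The Rag1 value rests on 2 probe sets, both of which separated the CLP groups, and the Rag2 value on 5. The sign of the Rag2 difference depended on the probe sets and arrays used. Of 16 recombination and end joining genes Rag1 was the member called, and the list had a median difference of −0.07 log2.

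**Figure D2:**
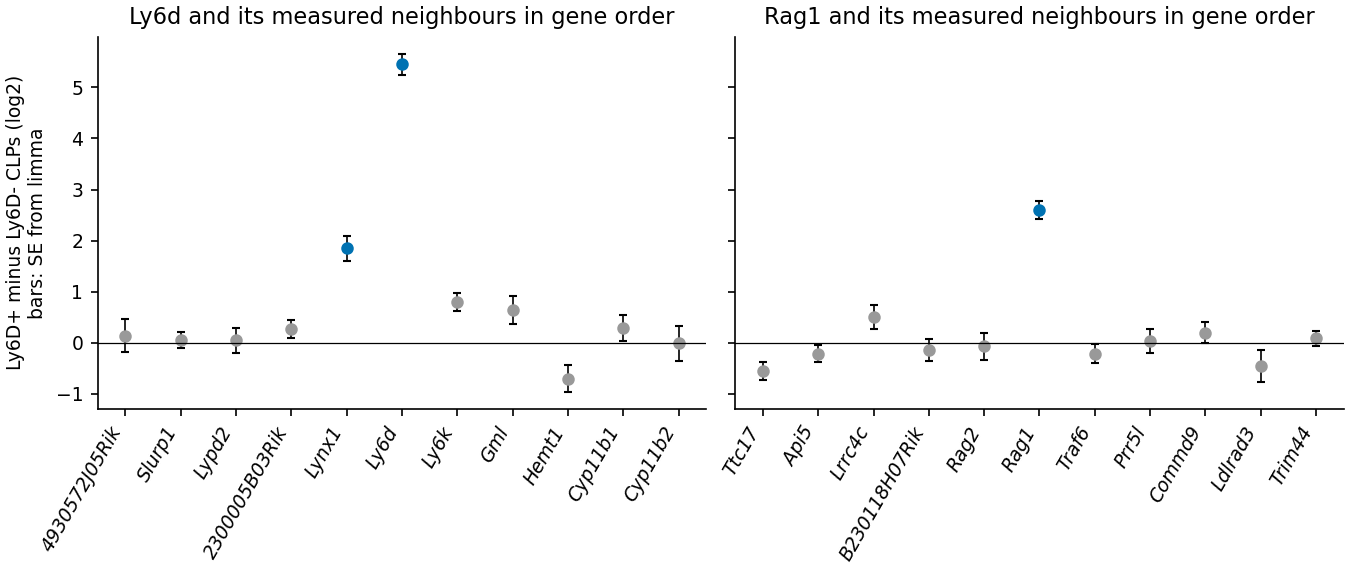
Differences between Ly6D+ and Ly6D− CLPs in log2 with their standard errors (bars) for Ly6d, Rag1 and the 10 nearest measured protein-coding genes of each, in the order of the RefSeq annotation. Blue points were called and grey points were not. Lynx1 at 1.85 is the called neighbour of Ly6d, and the neighbours of Rag1 lie between −0.55 and 0.51.

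Ly6d sits in a cluster of related genes, and 1 of its 10 nearest measured protein-coding neighbours was called as well, against 0.0993% of all genes. Lynx1, the next gene in the order, encodes a membrane-anchored modulator of nicotinic acetylcholine receptors from the same protein family. It read 7.01 and 7.87 in Ly6D+ and 5.58 and 5.60 in Ly6D− CLPs (log2 difference 1.85, SE 0.25, 3.60-fold, adjusted p = 0.0225), and all 6 of its probe sets separated the groups. Lynx1 lost the call with the median or the brightest probe set and with array weights. Ly6k, the neighbour on the other side, stood at 5.13 and 5.48 against 4.63 and 4.38 and did not pass (log2 difference 0.80, adjusted p = 0.19). The other neighbours of Ly6d differed by −0.70 (Hemt1) to 0.64 log2 (Gml), with none called. Over 26 measured genes of the Ly6 and uPAR family, 2 were called, Lynx1 and Ly6d, the latter being the gene of the sorted protein. In 11 of the 26 both CLP means were under the low-signal limit. The median of the family was 0.22 log2, against −0.0034 for all genes. None of the 10 neighbours of Rag1 was called.

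B lineage transcription factors were led by Ebf1, a factor needed for B cell specification. Ebf1 read 7.83 and 7.86 in Ly6D+ and 5.13 and 5.46 in Ly6D− CLPs, a 5.85-fold increase (log2 difference 2.55, SE 0.20, adjusted p = 0.000292), and 19 of its 21 probe sets were higher in both Ly6D+ arrays. Pou2af1, a coactivator of octamer-binding factors in B cells, stood at 5.76 and 6.12 against 4.40 and 3.45, and missed the threshold (log2 difference 2.01, adjusted p = 0.0618), its Ly6D− mean lying under the low-signal limit, so that the fold is at least 2.81. Pax5, the factor that fixes B cell identity, was lower in level, at 5.66 and 5.54 against 4.51 and 4.71 (log2 difference 0.99, adjusted p = 0.102). Both factors lay higher in each Ly6D+ array than in either Ly6D− array. Spib (0.79, adjusted p = 0.165) and Foxo1 (0.50, adjusted p = 0.434) had smaller log2 differences in the same direction. Of 28 genes on this list 1 was called and 20 had a difference above 0, where 49.5% of all genes did, with a median of 0.13 log2.

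The genes of the pre-B cell receptor and its signalling had a higher median difference than the transcription factors, 0.34 log2 over 19 genes, although only Vpreb2 was called. Vpreb2 encodes a part of the surrogate light chain. It read 7.08 and 7.43 in Ly6D+ and 4.85 and 4.73 in Ly6D− CLPs (log2 difference 2.46, SE 0.18, 5.51-fold, adjusted p = 0.000225). Its 4 probe sets disagreed in size: with their median in place of the mean Vpreb2 differed by 4.16 log2, and with the brightest probe set by 0.33 (adjusted p = 0.753). Vpreb1, whose product is nearly identical to that of Vpreb2, differed by 0.97 log2 (adjusted p = 0.31), and with the median of its 3 probe sets in place of their mean by −0.01. How the array divides signal between these close copies was not tested. Igll1, which encodes λ5, was at 4.84 and 4.83 in Ly6D+ CLPs, just over the low-signal limit, and at 3.49 and 3.58 in Ly6D− CLPs (at least 1.31-fold, log2 difference 1.30, adjusted p = 0.0546). Cd79a, the Igα signalling chain, was at 6.00 and 5.56 in Ly6D+ and at 4.25 and 3.29, under the limit, in Ly6D− CLPs (at least 2.52-fold, log2 difference 2.01, adjusted p = 0.0574). The Src family kinase gene Blk differed by 2.05 log2, with 7.80 or more in Ly6D+ against 6.06 and 5.65 in Ly6D− CLPs (adjusted p = 0.0929). Blnk, the adaptor that links the receptor to its kinases, was already bright in Ly6D− CLPs at 8.98 and 8.87, and read 10.02 and 9.66 in Ly6D+ CLPs (log2 difference 0.92, adjusted p = 0.0929). Vpreb3 (1.27) and the protein kinase C gene Prkcb (1.13) also differed by more than 1 log2 without overlap, and neither passed (adjusted p = 0.165 and 0.178).

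Separation of the arrays together with a difference of at least 1 log2, a description without a test, held for 92 genes higher in Ly6D+ CLPs (0.397% of all genes) and 91 lower (0.393%). By that measure 6 of the 19 pre-B cell receptor genes and 2 of the 28 transcription factor genes were higher, and 0 of either list were lower. Of these 183 genes, 79 had both means under the low-signal limit. Among 6 measured B cell markers, Cd79a, Cd79b, Pax5, Vpreb1, Igll1 and Ms4a1, the summed log2 level was 31.4 and 31.6 in Ly6D+ CLPs and 26.4 and 25.4 in Ly6D− CLPs. Of these 6 markers, 4 had means under the low-signal limit in Ly6D− CLPs and 1 in Ly6D+ CLPs. The sum was 25.9 to 28.1 in CD127+ LMPPs. The mature B cell gene Ms4a1, which encodes CD20, stayed under the low-signal limit in all 4 CLP arrays, between 3.28 and 3.42. Among 13 mature B and plasma cell genes none was called, and Cxcr5 had the largest difference (0.88, adjusted p = 0.121). The part of any B cells in the sort was not tested.

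**Figure D3:**
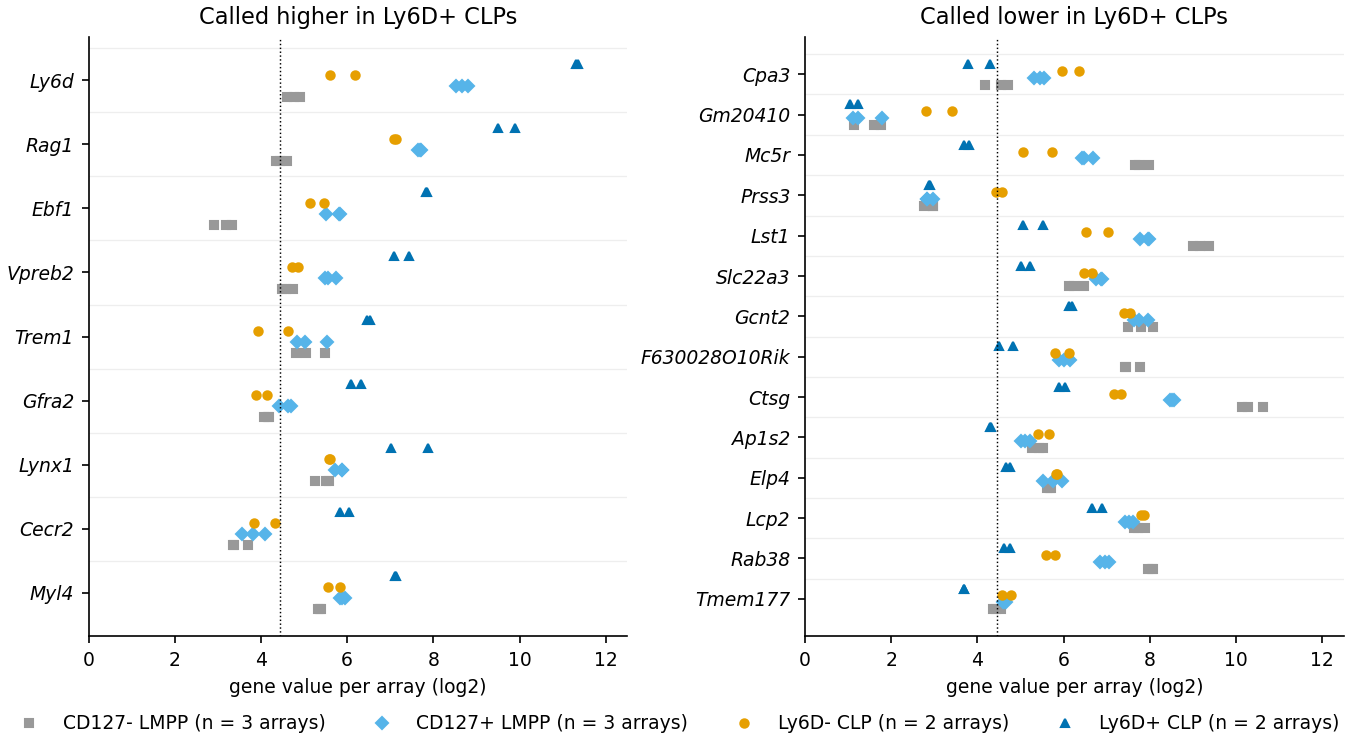
Gene values in log2 in each of the 10 arrays for the 9 genes called higher (left) and the 14 called lower (right) in Ly6D+ CLPs, ordered by the size of the difference. Symbols give the 4 sorted groups and the dotted line is the low-signal limit of 4.45. Ly6D+ CLPs have the highest group mean for all 9 genes on the left and the lowest for 13 of the 14 on the right, Prss3 being the exception.

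The other 4 genes that rose have no settled place in B cell development. Gfra2 encodes the receptor for the neurotrophic factor neurturin and rose at least 3.38-fold, from 4.15 and 3.89 in Ly6D− to 6.32 and 6.10 in Ly6D+ CLPs (log2 difference 2.19, SE 0.17, adjusted p = 0.000292). With its brightest probe set alone Gfra2 differed by 0.46 log2 and was not called (adjusted p = 0.81). Trem1, an activating receptor known from neutrophils and monocytes, read 6.47 and 6.53 in Ly6D+ and 3.94 and 4.63 in Ly6D− CLPs (at least 4.16-fold, adjusted p = 0.0221). Cecr2, a bromodomain protein of chromatin remodelling complexes, read 6.04 and 5.84 against 3.84 and 4.33 (at least 2.82-fold, adjusted p = 0.0136), and differed by 1.07 log2 with its brightest probe set (adjusted p = 0.544). Myl4, a myosin light chain of atrial and embryonic muscle, read 7.14 and 7.12 against 5.56 and 5.84 (2.69-fold, adjusted p = 0.00509), with 4 of 7 probe sets higher in both Ly6D+ arrays. Both LMPP groups were below Ly6D+ CLPs for each of them, with means of 4.14 and 4.58 for Gfra2 and 5.12 and 5.13 for Trem1. Cecr2 was the only called gene of 20 on the list of B progenitor surface genes, although its product is nuclear. The lists were chosen with earlier results of these data known, so this call is no evidence about surface genes.

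Of the 14 genes that fell, 5 were also called lower in CD127+ than in CD127− LMPPs, and their group means were lowest in Ly6D+ CLPs and highest in CD127− LMPPs. Ctsg, which encodes the neutrophil protease cathepsin G, read 7.16 and 7.34 in Ly6D− and 5.89 and 6.03 in Ly6D+ CLPs (log2 difference −1.29, SE 0.18, adjusted p = 0.0331). Its group means were 10.34 in CD127− LMPPs, 8.51 in CD127+ LMPPs, 7.25 in Ly6D− CLPs and 5.96 in Ly6D+ CLPs, and all 7 probe sets were lower in both Ly6D+ arrays. Lst1, a leukocyte transcript abundant in myeloid cells, went from 9.18 and 7.90 in the LMPP groups to 6.78 and 5.30 in the CLP groups, with 6.52 and 7.04 in Ly6D− and 5.06 and 5.53 in Ly6D+ arrays (log2 difference between CLPs −1.48, adjusted p = 0.0461). With the brightest probe set Lst1 differed by −0.70 (adjusted p = 0.462). Mc5r, a melanocortin receptor gene, read 5.06 and 5.73 in Ly6D− CLPs and 3.81 and 3.69, under the low-signal limit, in Ly6D+ CLPs (at least 1.93-fold lower, adjusted p = 0.0225). Rab38, a GTPase of lysosome-related organelles, fell by 1.03 log2 (adjusted p = 0.0461). The non-coding F630028O10Rik, for which RefSeq lists mir-223 among the synonyms, read 5.81 and 6.12 against 4.83 and 4.51 (log2 difference −1.30, adjusted p = 0.0461). Its means in CD127+ LMPPs and Ly6D− CLPs were level, at 6.03 and 5.96 (log2 difference −0.06, adjusted p = 0.898), and with the brightest probe set the CLP difference was −0.86 (adjusted p = 0.618). The microRNA itself was not measured here.

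Of 22 genes on the granulocyte and monocyte progenitor list Ctsg was the member called, 15 (against 50.5% of all genes) had a difference under 0, and the median was −0.13 log2. Prtn3, which encodes proteinase 3, read 5.61 and 6.10 in Ly6D− and 4.31 and 4.42, under the limit, in Ly6D+ CLPs (log2 difference −1.49, adjusted p = 0.0875). The myeloperoxidase gene Mpo differed by −0.76 log2 (adjusted p = 0.227), Csf3r, the receptor of G-CSF, by −0.82 (adjusted p = 0.154) and Csf1r, the receptor of M-CSF, by −0.70 (adjusted p = 0.268). The other 7 members had a difference above 0, led by Cebpe, a transcription factor of granulocyte maturation, at 4.53 and 4.87 in Ly6D+ and 4.02 and 3.90 in Ly6D− CLPs (0.75, adjusted p = 0.225). Among 16 macrophage and monocyte genes none was called, and the median was −0.07 log2. Of them 10 had a difference under 0 (against 50.5% of all genes) and 6 above 0. In 9 of the 16 both CLP means were under the low-signal limit. F13a1, which encodes part of clotting factor XIII, had the largest difference on this list (−1.56), with 5.83 and 5.85 in Ly6D− and 4.66 and 3.90 in Ly6D+ CLPs (adjusted p = 0.13). The chemokine receptor gene Ccr2 differed by −1.14 log2 (adjusted p = 0.233). Genes of mature granulocytes had a median of 0.09 log2 over 12 members with none called, and the chitinase-like gene Chi3l3 had the largest difference (0.87, adjusted p = 0.636). The summed log2 level of 7 neutrophil markers was 37.9 and 36.0 in Ly6D− and 40.7 and 36.1 in Ly6D+ CLPs.

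Cpa3, the carboxypeptidase of mast cell granules, followed another order, with the highest mean of the 4 groups in Ly6D− CLPs. It read 5.97 and 6.35 in Ly6D− and 4.29 and 3.78 in Ly6D+ CLPs (log2 difference −2.12, SE 0.23, at least 3.28-fold, adjusted p = 0.00509), and 10 of 12 probe sets were lower in both Ly6D+ arrays. With the brightest of them alone Cpa3 differed by −0.35 log2 (adjusted p = 0.745), and with their median by −2.36 (adjusted p = 0.0615), so it was called in neither case. Between LMPPs it went the other way and was higher in CD127+ cells by 0.97 log2 (adjusted p = 0.0307), with means of 4.47 and 5.44. Its mean in Ly6D− CLPs, 6.16, exceeded that of CD127+ LMPPs by 0.72 log2, which did not pass (adjusted p = 0.104). Cpa3 was the called gene of 11 on the mast cell, basophil and eosinophil list, whose median was −0.03 log2. Slc22a3, a transporter of organic cations that include histamine, read 6.66 and 6.47 in Ly6D− and 5.22 and 5.01 in Ly6D+ CLPs (log2 difference −1.45, SE 0.17, adjusted p = 0.0105), and differed by −0.94 with its brightest probe set (adjusted p = 0.413). The trypsin gene Prss3 read 4.57 and 4.44 in Ly6D− CLPs, just over the low-signal limit, and 2.88 and 2.89 in Ly6D+ CLPs (adjusted p = 0.00195), so that its fold is only bounded at 1.04 or more. Prss3 was under the limit in both LMPP groups, with means of 2.91 and 2.87, and rests on 2 probe sets, of which the brighter differed by −0.52 log2 (adjusted p = 0.726).

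Of the remaining 6 genes that fell, 5 did not pass between Ly6D− CLPs and CD127+ LMPPs, where their log2 differences ran from −0.31 for Gcnt2 to 0.42 for Ap1s2. Gcnt2, a glycosyltransferase that branches blood group I chains, read 7.53 and 7.41 in Ly6D− and 6.19 and 6.12 in Ly6D+ CLPs (log2 difference −1.32, adjusted p = 0.0461), with LMPP means of 7.79 and 7.78. Lcp2, which encodes the signalling adaptor SLP-76, read 7.87 and 7.79 against 6.67 and 6.89 (log2 difference −1.05, adjusted p = 0.0461), and 14 of its 19 probe sets were lower in both Ly6D+ arrays. Gcnt2 and Lcp2 lost the call under quantile normalization, and with the median or the brightest probe set. Ap1s2, a subunit of a clathrin adaptor, was at least 2.11-fold lower (adjusted p = 0.0232), and the mitochondrial protein gene Tmem177 at least 1.18-fold (adjusted p = 0.0461), their Ly6D+ means of 4.31 and 3.69 being under the low-signal limit. In Ap1s2 5 of 10 probe sets were lower in both Ly6D+ arrays. The Elongator subunit gene Elp4 fell by 1.13 log2 (adjusted p = 0.0461). With the brightest probe set the log2 differences were −0.24 for Ap1s2 (adjusted p = 0.827), −0.33 for Tmem177 (adjusted p = 0.851) and −0.62 for Elp4 (adjusted p = 0.7). Gm20410, a predicted gene that RefSeq now names Esp34, rests on 1 probe set and had means under the limit in all 4 groups, from 1.13 in Ly6D+ to 3.12 in Ly6D− CLPs.

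In T lineage and Notch genes, T cell factor 1 stood apart from the rest of its list. Tcf7, which encodes this factor of early T cell and innate lymphoid development, read 6.61 and 6.48 in Ly6D− and 5.50 and 5.10 in Ly6D+ CLPs, and missed the threshold (log2 difference −1.25, 95% interval −1.68 to −0.81, adjusted p = 0.0546). The LMPP means of Tcf7, 5.01 and 5.55, were below those of Ly6D− CLPs. Of 23 measured members 17 had a difference above 0, where 49.5% of all genes did, with a median of 0.25 log2 and none called. Among them were Cd7 (0.97, adjusted p = 0.249), Cd247, a signalling chain of the T cell receptor complex (0.88, adjusted p = 0.19), and Bcl11b, a factor of T cell commitment (0.85, adjusted p = 0.427). The 26 innate lymphoid and natural killer genes had a median of 0.09 log2 and no call, and Id2, an inhibitor of E proteins, had the largest difference (0.62, adjusted p = 0.299).

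Siglech encodes a surface lectin typical of plasmacytoid dendritic cells. It was the 1 member of 22 dendritic cell genes that differed by 1 log2 or more without overlap, against 0.79% of all genes. It read 8.91 and 8.93 in Ly6D+ and 7.63 and 7.80 in Ly6D− CLPs (log2 difference 1.21, adjusted p = 0.0574), and all 9 of its probe sets were higher in both Ly6D+ arrays. The list median was −0.03 log2, and 12 of the 22 genes had a difference under 0. Over 8 plasmacytoid dendritic cell markers the summed log2 level was 56.5 and 56.2 in Ly6D+ and 55.2 and 55.4 in Ly6D− CLPs, with 1 of 8 differing by 1 log2 or more without overlap. The part of dendritic cells in the sort was not tested. MHC class II genes (10 measured) had no call and a median of −0.03 log2, with H2-Oa as the largest difference (−0.39, adjusted p = 0.674). No marker of the other mature cells checked was called. The summed log2 level of 4 T cell markers was 15.6 and 13.6 in Ly6D− and 15.8 and 15.0 in Ly6D+ CLPs, and 4 and 3 of them had means under the low-signal limit. That of 6 natural killer cell markers was 28.0 and 28.1 against 28.7 and 28.7, and that of 7 macrophage markers 32.6 and 31.8 against 31.7 and 32.1. For 3 erythroid markers it lay between 12.7 and 13.6 in the 4 arrays, and for 5 plasma cell markers 24.9 and 24.5 against 25.5 and 25.5. The 6 CLP markers, with Rag1 among them, summed to 51.7 and 50.9 in Ly6D− and 54.2 and 54.5 in Ly6D+ CLPs.

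Genes of stem cells and multipotent progenitors had a median of −0.11 log2 over 21 members, with none called. The largest difference was in Hlf, a transcription factor of stem cells, which read 5.32 and 5.40 in Ly6D− and 4.44 and 4.21 in Ly6D+ CLPs (−1.04, adjusted p = 0.195). Hoxa9 (−0.80, adjusted p = 0.174) and Cd34 (−0.72, adjusted p = 0.179) had log2 differences in the same direction. The 31 cell cycle genes showed no call and a median of 0.05 log2, led by the thymidylate synthase gene Tyms (0.63, adjusted p = 0.351). The 30 clustered histone genes had a median of 0.15, with Hist1h2ak as the largest (0.74, adjusted p = 0.247). Interleukin 7 signalling genes (21 measured) had a median of 0.02 log2 and no call, with Stat5b as the largest difference (−0.74, adjusted p = 0.359). Of the other lists, early lymphoid genes held 1 call, Rag1, among 21 members. Of 20 interferon response genes none was called, and 13 had a difference under 0, with a median of −0.17 log2. Ifit3 had the largest difference on that list (1.79), and 1 of its 2 probe sets was higher in both Ly6D+ arrays. None was called among erythroid and megakaryocyte genes (15, led by Car2 at −1.17) or homing and adhesion genes (20, led by Ccr2). No call fell among stress response genes (17, led by Sesn2 at 0.33) or immediate early and heat shock genes (22, led by Hspa1a at −0.39). The same held for stroma and endothelium (15, led by Emcn at −0.85), mitochondrial genome genes (10, led by ND3 at 0.09), ribosomal proteins (66, led by Rps16 at 1.18) and small nucleolar RNAs (83, led by Snora36b at 1.57). Immunoglobulin segments (13, led by Iglv1 at 0.64) and T cell receptor segments (6, led by Trav3-4 at −1.38) held no call either. Snora36b and Trav3-4 had both means under the low-signal limit, so these leads rest on signal not above background. The dimmer CLP mean was also under the limit for Vpreb1, Vpreb3, Bcl11b, Hlf, F13a1, Ccr2, Chi3l3, Emcn, Ifit3, Iglv1, Rps16 and Sesn2, which were not called. The leading values of these lists come with adjusted p from 0.174 to 0.91.

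**Figure D4:**
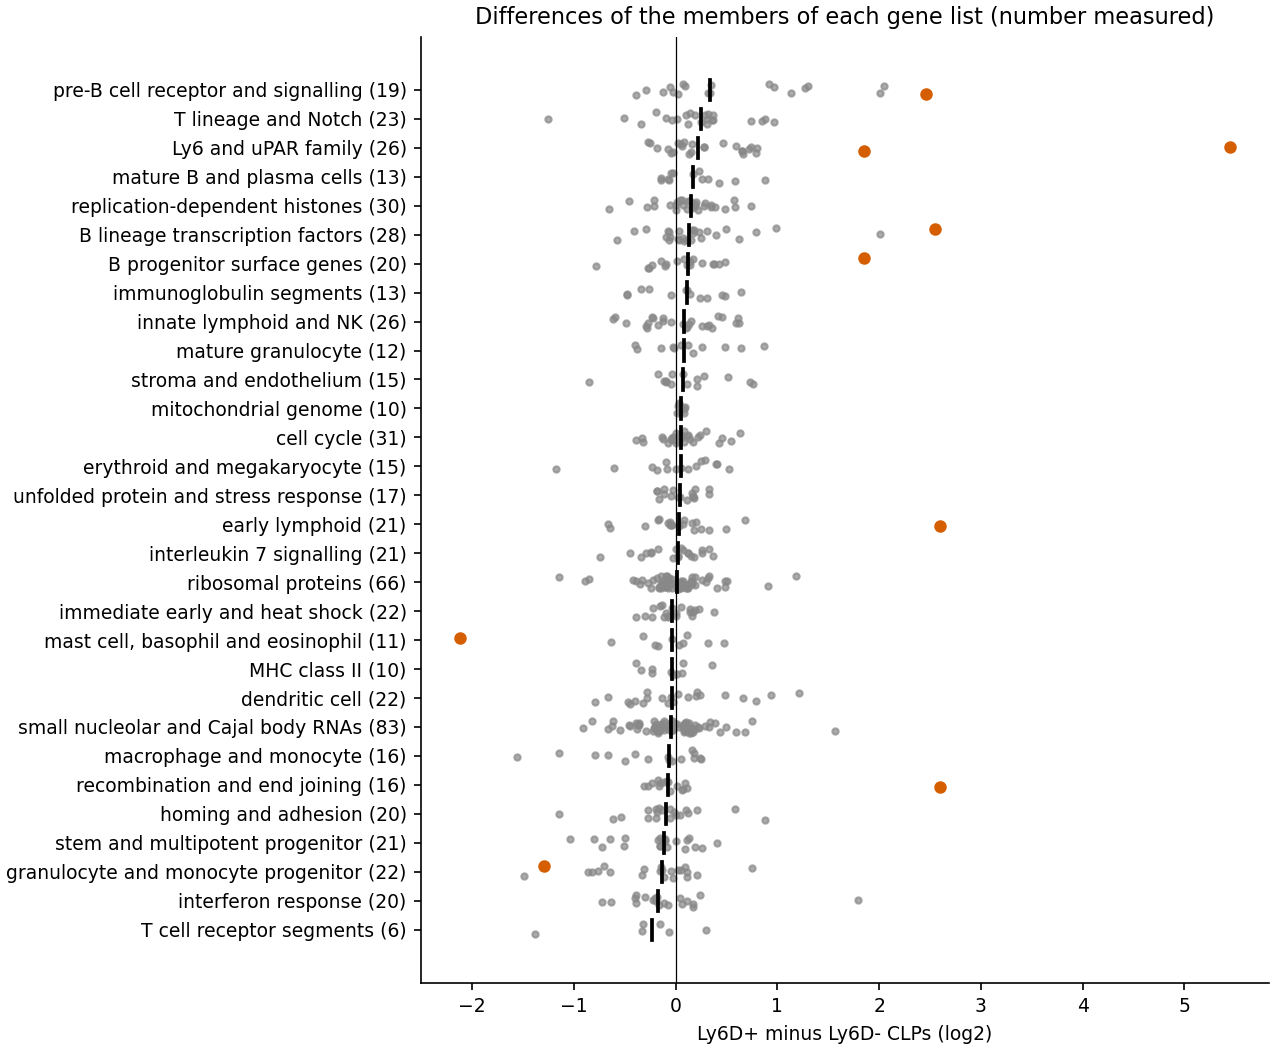
Differences between Ly6D+ and Ly6D− CLPs in log2 for every measured member of 30 gene lists, with the number measured in brackets. Orange points are called genes, grey points are not, and the black bar is the list median. Pre-B cell receptor genes have the highest median (0.34) and T cell receptor segments the lowest (−0.24), and each list with a call has 1 or 2 called members.

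Genes that separated the LMPP groups tended to differ in the same direction between the CLP groups. The LMPP differences used no CLP array, but the calls did in part, because all arrays entered the shared estimate of spread. So the calls of the LMPP and CLP comparisons are not independent of each other. Of the 204 genes called higher in CD127+ than in CD127− LMPPs (0.881% of all genes), 136 (66.7%) had a difference above 0 in Ly6D+ against Ly6D− CLPs, where 49.5% of all genes did, and their median was 0.166 log2. Of the 137 called lower (0.592%), 110 (80.3%) were below 0, where 50.5% of all genes were, with a median of −0.242 log2. At 1 log2 or more without overlap, 12 of those 137 were lower in Ly6D+ CLPs and 0 higher, and 8 of the 204 were higher and 1, Cpa3, lower. Read the other way, 4 of the 9 genes called higher in Ly6D+ CLPs were also called higher in CD127+ LMPPs: Ly6d, Rag1, Ebf1 and Vpreb2. Of the 14 called lower, 5 were also called lower, and 1, Cpa3, was called higher. Neutrophil and erythroid markers were also higher in CD127+ LMPPs. The summed log2 level of 7 neutrophil markers was 51.7 to 57.3 there and 32.5 to 41.9 in CD127− LMPPs. For 3 erythroid markers it was 17.6 to 20.0 against 13.9 to 14.4. Chi3l3 was among the 204 genes (log2 difference 2.71, adjusted p = 0.00571). Genes are not independent replicates, so the shares above are given without a test.

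For Ly6d, Rag1, Ebf1 and Vpreb2, Ly6D− CLPs had lower means than CD127+ LMPPs, and Ly6D+ CLPs had higher ones. Over all genes, 1.42% were called lower in Ly6D− CLPs than in CD127+ LMPPs, and 1.28% were called higher in Ly6D+ CLPs than in CD127+ LMPPs. Ebf1 had a mean of 5.30 in Ly6D− CLPs and 5.71 in CD127+ LMPPs (log2 difference −0.42, adjusted p = 0.259), and Rag1 had 7.11 and 7.69 (−0.58, adjusted p = 0.0851), and neither difference passed. Vpreb2 was lower in Ly6D− CLPs than in CD127+ LMPPs by 0.80 log2 (adjusted p = 0.035), and Ly6d by 2.79 log2 (adjusted p = 0.00031). Ly6D+ CLPs were above CD127+ LMPPs for all 4 genes, by 2.13 log2 for Ebf1 (adjusted p = 0.000275), 2.02 for Rag1 (adjusted p = 0.000164), 1.66 for Vpreb2 (adjusted p = 0.00061) and 2.66 for Ly6d (adjusted p = 9.95e-05). These comparisons share the CD127+ LMPP arrays, and any difference in processing between CLP and LMPP arrays cannot be told apart from cell type in them. The order CD127− LMPP, Ly6D− CLP, CD127+ LMPP, Ly6D+ CLP from low to high described the group means of 6 of the 9 genes that rose.

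Proximal promoters are shown for 2 genes that rose and 2 that fell, chosen from the strongest calls of known lymphoid or granule genes, to give the sequence next to which these transcripts start. They are the 250 bases before the annotated start, from RefSeq on GRCm38.p6, 5′ to 3′ on the strand of the gene. Capitals mark matches on either strand to short motifs: E boxes (CAGGTG or CAGCTG), a RUNX motif (TGTGGT), an ETS motif (GGAAGT) and a TATA motif (TATAAA). An EBF motif (CCCNNGGG) and a FOXO motif (GTAAACA) were searched as well and had no match in these 4 sequences. The Rag1 promoter is chr2:101649533-101649782 (minus strand), that of Vpreb2 chr16:17980315-17980564 (plus strand), that of Cpa3 chr3:20242182-20242431 (minus strand) and that of Ctsg chr14:56102575-56102824 (minus strand).
Rag1: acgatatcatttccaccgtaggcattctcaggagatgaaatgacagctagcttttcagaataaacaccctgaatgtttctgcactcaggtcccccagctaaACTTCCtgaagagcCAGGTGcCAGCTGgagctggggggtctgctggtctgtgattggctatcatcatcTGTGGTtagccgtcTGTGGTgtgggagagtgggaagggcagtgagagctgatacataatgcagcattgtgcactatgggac
Vpreb2: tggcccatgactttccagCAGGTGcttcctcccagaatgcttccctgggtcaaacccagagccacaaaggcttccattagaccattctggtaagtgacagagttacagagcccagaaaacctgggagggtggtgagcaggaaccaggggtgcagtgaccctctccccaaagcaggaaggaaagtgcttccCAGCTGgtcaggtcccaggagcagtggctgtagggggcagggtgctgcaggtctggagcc
Cpa3: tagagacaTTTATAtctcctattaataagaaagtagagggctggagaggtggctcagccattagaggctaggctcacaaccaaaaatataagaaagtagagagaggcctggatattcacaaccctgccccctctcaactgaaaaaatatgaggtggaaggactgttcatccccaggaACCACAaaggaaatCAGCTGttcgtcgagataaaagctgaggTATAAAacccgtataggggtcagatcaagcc
Ctsg: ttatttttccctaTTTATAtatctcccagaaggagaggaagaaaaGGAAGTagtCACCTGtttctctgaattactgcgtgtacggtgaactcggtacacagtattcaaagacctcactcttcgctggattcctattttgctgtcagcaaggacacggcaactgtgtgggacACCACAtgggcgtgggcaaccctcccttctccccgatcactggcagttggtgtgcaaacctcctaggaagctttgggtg

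The Rag1 sequence holds 2 adjacent E boxes, which begin 135 and 128 bases before the start, an ETS match at 149 and RUNX matches at 81 and 67. Vpreb2 holds E boxes at 232 and 60 bases. Both genes that fell have a RUNX match at a like distance, 73 bases for Cpa3 and 79 for Ctsg, and Cpa3 has a TATA match at 31. Over the window from 250 bases before to 50 after the start, 5 of the 9 genes that rose and 10 of the 14 that fell had a promoter in the table. CAGGTG was found in 2 of the 5 and 4 of the 10, against 22.2% of 15968 genes, and CAGCTG in 2 of the 5 and 4 of the 10, against 18.3%. The ETS motif was found in 4 of the 5 and 4 of the 10, against 27.7%. The RUNX motif was found in 2 of the 5 and 2 of the 10, against 16.7%, and the TATA motif in 0 of the 5 and 3 of the 10, against 14.4%. The EBF motif was found in 0 of the 5 and 0 of the 10, against 18% of all genes, and the FOXO motif likewise in 0 and 0, against 3.53%. Among the larger sets with at least 1 log2 and no overlap, CAGGTG was found in 29.6% of 54 genes higher and 21.4% of 56 lower. In the same order, CAGCTG was found in 18.5% and 17.9%, and the ETS motif in 31.5% and 30.4%. The RUNX motif was found in 31.5% and 21.4%, and the EBF motif in 9.26% and 14.3%. The FOXO motif was found in 3.7% and 8.93%, and the TATA motif in 8 of the 54 and 16 of the 56. A match is a description of the sequence and no evidence that a factor binds there.

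The calls changed with the arrays, genes and probe sets that entered the fit. When the 4 CLP arrays were fitted alone, Ly6d was the gene that passed. Without Ly6D− CLP array 1 the count was 27, without Ly6D− CLP array 2 it was 9, without Ly6D+ CLP array 1 it was 8 and without Ly6D+ CLP array 2 it was 6, and 6 of the 23 calls held in each case: Ly6d, Rag1, Ebf1, Vpreb2, Gfra2 and Prss3. With dim genes left out before the test, 62 genes passed and 43 were added, among them Blk, Blnk, Pax5, Pou2af1, Siglech, Prtn3 and Tcf7. When a gene was read from its brightest probe set, 4 of the 23 calls held: Ly6d, Rag1, Ebf1 and Ctsg.

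**Figure D5:**
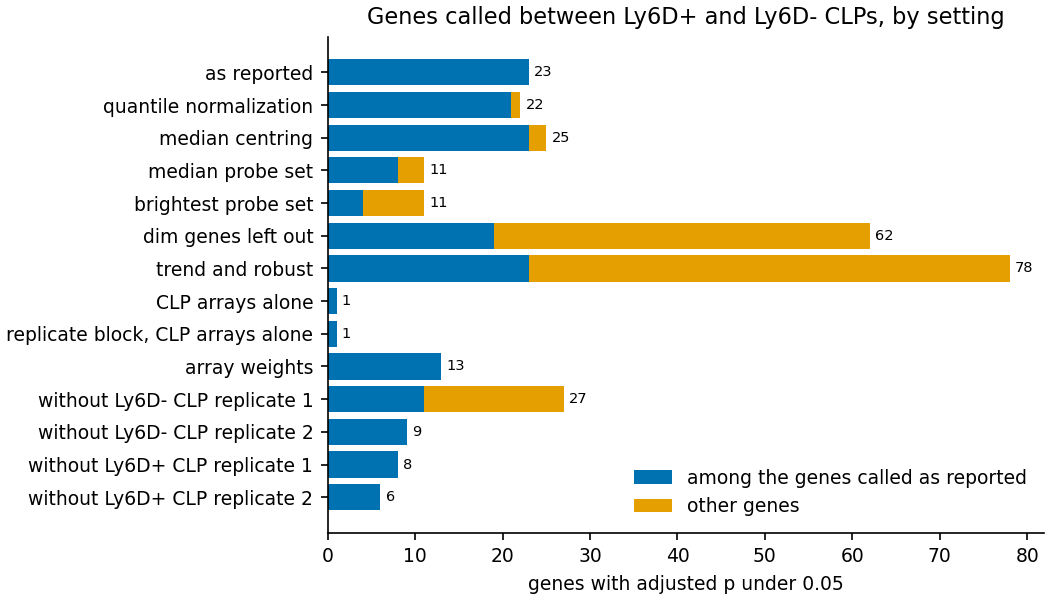
Number of genes with an adjusted p under 0.05 between Ly6D+ and Ly6D− CLPs (horizontal axis) under each setting. Blue bars count genes among the 23 called as reported and orange bars count other genes. The count runs from 1 with the CLP arrays alone to 78 with the trend and robust settings, in which all 23 are kept.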

How the data were processed

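The authors' deposited table covers 10 Affymetrix arrays and 269751 probe sets. The values were read as log2 from their range, 0.204 to 14.8 with no negative value, because the deposited log2 scale is not stated. Per the submitters' processing notes, Affymetrix Power Tools was used. The summary of probes, the normalization and the build were not given in the sources used here. Array medians differed by at most 0.0493, so no further normalization was applied.

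Values of 23152 genes are means of 233753 probe sets that carry 1 symbol each. Another 5106 had several symbols and 30892 none, and these were left out. Symbols follow the platform annotation, and 20875 are current in the RefSeq table of GRCm38.p6, which served for names, gene order and promoters (no protein sequence was used here).

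Limma 3.58.1 in R 4.3.3 fitted a mean for each of the 4 groups on all 10 arrays, with default empirical Bayes settings and Benjamini-Hochberg adjustment over all genes. The number of arrays limits the precision. The steps were tested on simulated data. Tables and figures were made in Python 3.11.15 (pandas 2.3.3, matplotlib 3.10.9).

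Genes were named by a rule: the 12 largest calls in each direction with no overlap of arrays, leaving out predicted, small RNA and receptor segment genes, the 5 sort markers, cell type markers, and from each of 31 lists up to 4 called members or else the largest difference. Other genes, among them Rag2, further list members and the called Gm20410 and F630028O10Rik, were picked with their values in view. The comparison and the lists were chosen with earlier results of these data known. Alternatives were other normalizations, probe set summaries, a dim filter, variance settings, array weights, a 2-fold threshold, the CLP arrays alone, a replicate block and each CLP array left out.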

Additional observations from a re-analysis of the deposited data

How the results depend on the processing

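The count of 23 calls held within 1.5 times under quantile normalization (22), median centring (25) and a 2-fold threshold (22). Under quantile normalization Gcnt2 and Lcp2 lost the call and Olfr1467 gained it. The count was 11 with the median probe set of a gene and 11 with the brightest, 62 with dim genes left out, 78 with trend and robust settings and 13 with array weights. By direction, 33 and 37 were higher with dim genes left out and with trend and robust settings, and 29 and 41 lower. With the median or the brightest probe set 5 were lower, and with array weights 5. Fitting the 4 CLP arrays alone left 1 higher (Ly6d) and 0 lower by limma, with 757 genes lower at an unadjusted p under 0.05. This fit has 2 residual degrees of freedom against 6 for all arrays. The replicate block on those 4 arrays gave the same counts, 1 in all, 1 higher and 0 lower (784 lower at an unadjusted p under 0.05). The deviations of arrays numbered alike correlated at 0.028 across all genes, 10366 of which had both CLP means under the low-signal limit. With so many genes at background, this value cannot show whether arrays numbered alike came from the same mouse or sort. The labels do not state a pairing, so the block is not read as a paired test. With 1 array left out, calls ran from 6 to 27, those higher from 5 to 13 and those lower from 1 to 14, the lone array being assumed to vary like the other groups. Ly6d passed in every setting tried, and Ebf1 and Rag1 in every setting but the 2 fits of the CLP arrays alone. Among genes that were not called, signs turned for Rag2 (0.13 with the brightest probe set, and −0.27 to 0.13 with 1 array left out), Vpreb1 (−0.01 with the median probe set) and ND3 (−0.01 to 0.19 with 1 array left out). Called genes kept their direction throughout, and lost the call in 148 of 295 cases of gene and setting. List medians moved by more than the spread of arrays in 72 of 248 cases. The cause of these changes was not tested.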

Other observations

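Several genes outside the lists came close to the threshold and were chosen after their values were seen. Pde2a, a phosphodiesterase of cyclic nucleotides, read 6.08 and 6.31 in Ly6D+ and 4.62 and 4.82 in Ly6D− CLPs (log2 difference 1.47, adjusted p = 0.0546 by limma). Gimap4, a GTPase of lymphocytes, read 5.68 and 5.97 against 4.72 and 4.35 (log2 difference 1.29, adjusted p = 0.055), and was higher in CD127+ LMPPs as well, by 1.41 log2 (adjusted p = 0.00185). St6gal1, a sialyltransferase, differed by 1.07 log2 between the CLP groups (adjusted p = 0.102) and by 2.27 between the LMPP groups (adjusted p = 7.11e-05).

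On the lower side, Fgd4, an activator of the GTPase Cdc42, read 4.50 and 4.67 in Ly6D+ and 5.69 and 5.90 in Ly6D− CLPs (log2 difference −1.21, adjusted p = 0.0546). The membrane repair gene Myof differed by −1.10 log2 over 43 probe sets (adjusted p = 0.0667). The chemokine gene Ccl3 was bright in all 4 arrays, at 9.88 and 9.68 in Ly6D+ and 10.75 and 10.64 in Ly6D− CLPs (log2 difference −0.92, adjusted p = 0.0667). Muc13, a membrane mucin, differed by −1.48 log2 between the CLP groups (adjusted p = 0.104) and by −1.43 between the LMPP groups (adjusted p = 0.00948), and Ms4a6b by −1.22 (adjusted p = 0.102) and −1.30 (adjusted p = 0.00498).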
